A study of Mus musculus with 18 samples.

Results

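The comparison concerned 8 of the 18 kidney RNA libraries of the series, those of the female offspring of dams fed a low protein (LP) or a normal protein (NP) diet, and it gave the diet effect at a fixed kidney state. There were 5 LP females and 3 NP females, 1 library per mouse. All were wild-type outbred CD-1 mice aged 6 wk. The dams ate chow with 8% protein (LP) or 18% protein (NP), and all offspring ate the 18% protein diet after weaning at 3 wk. Every mouse of both groups had also received cationic ferritin, an iron-rich contrast agent, in 2 injections, the last of them 24 h before the female kidneys were perfused with saline and removed. RNA came from a piece of the left kidney according to the methods, whereas the design text speaks of the whole kidney, so the parts of the kidney in each piece are not known exactly. The litter of each mouse is not given in the sources used here, so the spread between litters could not be measured. Diet was given to the dams, and the authors' reply to reviewers names only a few litters for the adult mice. The p-values take each mouse as independent, so they would be too small if littermates resembled each other.

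The female kidneys fell into a pair of states, and the state of each library was chosen by the measured level of interferon and glucocorticoid genes in these same libraries. LP females 1 and 2 and NP female 3 formed the low state, and LP females 3, 4, and 5 and NP females 1 and 2 formed the high state. The diet effect is the LP minus NP coefficient of a model with diet and state, so its p-values are conditional on states that were selected on the readout. A maternal low protein diet is an established rodent model of poor fetal growth, in which the offspring form fewer nephrons. In the adult kidney, the proximal tubule reclaims filtered glucose, amino acids, and phosphate, the distal convoluted and connecting tubules adjust calcium and sodium, and the principal cells of the collecting duct take up water through aquaporin 2. Interferons and glucocorticoids each switch on a well-known set of target genes in kidney cells.

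Levels are given in CPM, the reads of a gene scaled to a common library total and normalized by TMM. For *Cxcl10*, an interferon-induced chemokine, LP females 1 to 5 had 3.26, 3.81, 276, 450.2, and 793 CPM and NP females 1 to 3 had 506, 1390, and 6.77 CPM. *Ifit1*, an interferon-induced antiviral gene, had 4.36, 5.77, 167, 226, and 631 CPM in LP females and 281, 739, and 4.88 CPM in NP females. *Fkbp5*, a glucocorticoid receptor target, had 29.3, 22.2, 530, 427, and 483 CPM in LP females and 260, 282, and 45.7 CPM in NP females. The 3 low-state libraries thus lay below the 5 high-state libraries for each marker, as the choice of states requires. The state coefficient was at least 2-fold for 1164 of the 13510 genes tested, and 747 of these were higher in the high state. Diet and state were nearly unrelated over the 8 libraries (correlation 0.067), but the low state held only 1 NP library.

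**Figure D1:**
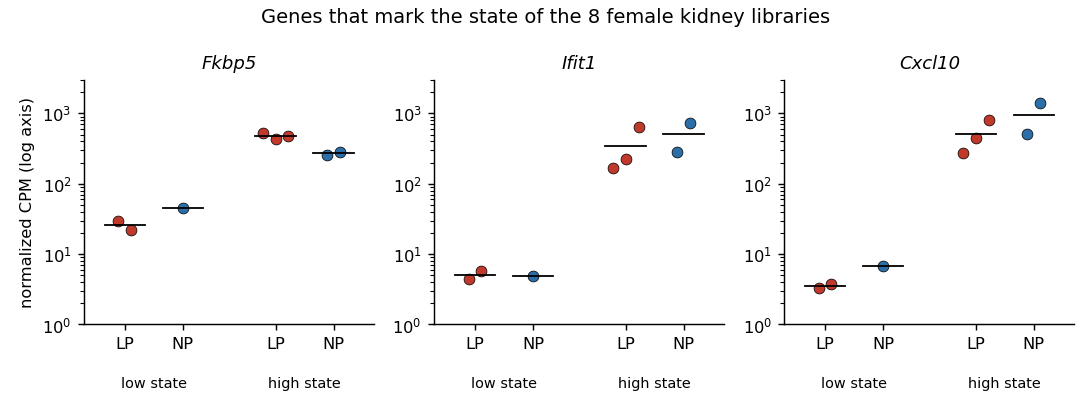
Normalized CPM (log axis) of *Fkbp5*, *Ifit1*, and *Cxcl10* in the 8 female libraries, by state and diet, with points for libraries and lines for means. The 3 low-state libraries lie below the 5 high-state libraries in every panel, and 1 of the 3 is an NP library.

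Between 14475623 and 23562411 reads per female library were counted on genes. Kidney markers were present in every library, from *Lrp2* of the proximal tubule, at 1132 CPM or more, to *Nphs1* of podocytes, at 10.8 CPM or more. Of tissue next to the kidney, 12 adrenal genes summed to 1.02 to 5.19 CPM, and *Cyp11b1* was at 0 in all 8 libraries. The 15 genes of the fat list summed to 289 to 1783 CPM in LP females and 837 to 1399 CPM in NP females. Most of each sum was *Lpl*, so the sum says little of the other fat genes. With the male share subtracted, as described below, *Lpl* had 266 to 1431 CPM in LP females and 1372, 751, and 778 CPM in NP females. *Fabp4* of the same list then had 7.03 to 29.96 CPM in LP females and 9.28, 6.57, and 112 CPM in NP females 1 to 3. The 10 urothelium genes summed to 69.0 CPM in NP female 2 and 8.37 to 30.1 CPM in the other 7. NP female 2 also had 221 CPM of *Akr1b1*, an aldose reductase that is abundant in the inner medulla, against 24.9 to 52.4 CPM elsewhere. NP female 3 stood apart in mitochondrial transcripts, with 169600 CPM against 63900 to 105300 CPM in the other libraries. Genes with less than 1500 exonic bases took 5.04% and 4.52% of the nuclear counts in NP females 1 and 3 but 2.80% to 3.43% in the other 6 libraries.

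That last measure moved with the diet coefficient. Among the 3377 tested genes with the shortest models, of 63 to 3781 exonic bases, the median log2 fold change (LP minus NP) was -0.15, and 359 genes were lower and 94 higher at an unadjusted p under 0.05. Among the 3377 with the longest models, of 9128 bases or more, the median was 0.08, with 81 lower and 205 higher. The short-gene share of each library was therefore added to the model, an alternative chosen after the data were seen. Its values stand beside the coefficients given for genes named by rule where they differ by more than 1.5 times, and for a few others. Over the 8 libraries the share correlated with diet at -0.638, and this model left 4 residual degrees of freedom. The share was also summed from the counts of short genes. A smaller coefficient with it in the model thus cannot tell gene length from diet.

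No gene passed the test of diet. Of 13510 genes with at least 10 counts in each of the 8 libraries, 0 (0%) met both thresholds of edgeR's quasi-likelihood test, an adjusted p below 0.05 and a fold of 1.5 or more, and the smallest adjusted p was 0.111. Before adjustment, 1466 genes (10.9%) had p below 0.05, of which 832 (6.16%) were lower and 634 (4.69%) higher in LP females. The counts in gene lists below are to be read against these shares of all genes. Without the state term 564 genes had an unadjusted p below 0.05, 556 of which were among the 1466, and the smallest adjusted p was 0.886. The standard error (SE) of the log2 values had a median of 0.24 without the state and 0.19 with it, while the median size of the changes was 0.18 and 0.19. By position, 600 genes (4.44%) had every LP library below every NP library within both states, and 732 (5.42%) had every LP library above. DESeq2's Wald test of the same model called 58 of 13504 genes (0.43%), 42 lower (0.311%) and 16 higher (0.118%) in LP females, all 58 of them at an unadjusted p under 0.05 in edgeR. Limma-voom called 0 genes, with 1489 at an unadjusted p under 0.05, and 2 genes when libraries were weighted by quality.

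NP female 2 decided these counts. Without it, edgeR called 911 genes and DESeq2 1411. That comparison keeps 1 NP library in each state, NP females 1 and 3, which are also the libraries with the high short-gene share. With any other library left out, edgeR called at most 1 gene, *Cwc22* (named after its values were seen), and DESeq2 18 to 49. Of the 58 genes called by DESeq2, 4 were called again with each of the 8 libraries left out. These were *Iqcg*, *Atxn7l2*, *Slc7a13*, and *Rpl35a*.

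**Figure D2:**
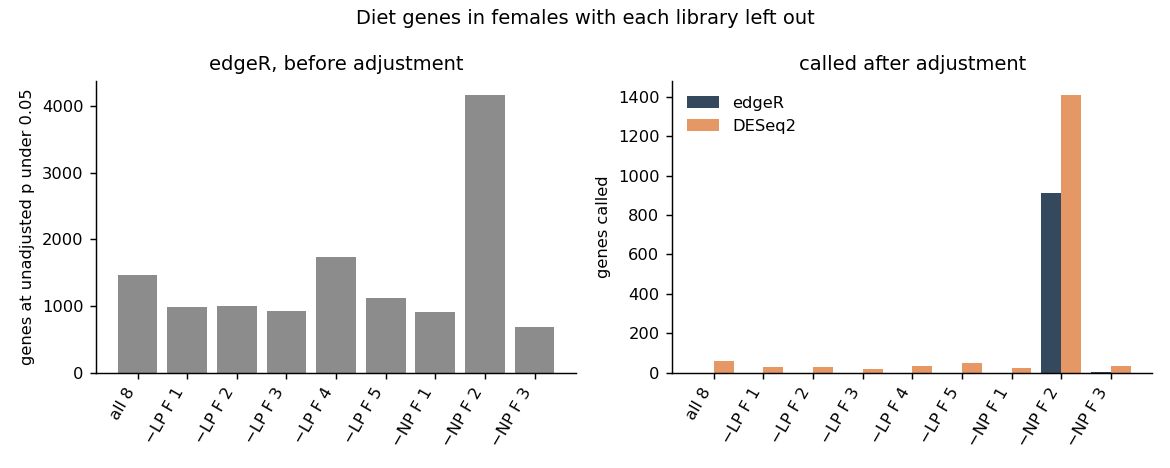
Number of genes at an unadjusted p under 0.05 in edgeR (left) and number called by edgeR and DESeq2 (right) with all 8 female libraries and with each left out, as named on the x axis. The bars without NP F 2 reach 4167, 911, and 1411 genes.

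*Iqcg*, which had the smallest p, and *Rpl35a* are neighbours on chromosome 16 that overlap by 170 bases on opposite strands of GRCm39, *Iqcg* from 32833053 to 32876799 and *Rpl35a* from 32876630 to 32880559. *Iqcg* encodes a calmodulin-binding protein of cilia and flagella, and *Rpl35a* a protein of the large ribosomal subunit. The start region of *Rpl35a* is shown because it is also that of *Iqcg*. The line gives the promoter window of RefSeq (build GRCm38.p6, chr16:33056203-33056502, plus strand), and capitals mark the 234 bases that also lie in the window of *Iqcg* on the other strand.
Rpl35a: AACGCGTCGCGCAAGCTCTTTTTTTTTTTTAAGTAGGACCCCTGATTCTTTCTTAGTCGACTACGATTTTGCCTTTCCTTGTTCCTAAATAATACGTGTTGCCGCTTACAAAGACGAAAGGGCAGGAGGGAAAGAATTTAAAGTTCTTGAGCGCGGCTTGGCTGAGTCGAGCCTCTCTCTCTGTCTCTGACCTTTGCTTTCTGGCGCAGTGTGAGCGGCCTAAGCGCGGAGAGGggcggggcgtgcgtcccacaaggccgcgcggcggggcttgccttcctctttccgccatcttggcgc

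The library was not stranded, so reads in the overlap cannot be given to 1 gene of the pair. Reads on more than 1 gene were set aside as ambiguous in these counts and were counted for neither gene. *Iqcg* had 9.77, 8.56, 5.65, 5.62, and 8.07 CPM in LP females 1 to 5 and 22.4, 15.97, and 28.9 CPM in NP females 1 to 3. *Rpl35a* had 51.8, 51.7, 46.3, 58.5, and 43.3 CPM in LP females and 149, 76.5, and 202 CPM in NP females. For both genes no LP library reached an NP library in either state or across states. The log2 fold change of *Iqcg* was -1.60 (SE 0.19, edgeR adjusted p = 0.111, DESeq2 adjusted p = 4.17e-10). That of *Rpl35a* was -1.48 (SE 0.23, edgeR adjusted p = 0.335, DESeq2 adjusted p = 2.43e-05). With the short-gene share in the model they were -1.41 (SE 0.22) and -0.90 (SE 0.15), with an edgeR adjusted p of 0.178 and 0.198. Permuting the diet labels within state gave p = 0.0333 for each (exact, two-sided), the smallest that the 30 possible arrangements allow. Both genes were picked by their small p in these same libraries, so this permutation p is no separate support. In males the coefficients were -0.54 (SE 0.45) and -0.37 (SE 0.30).

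*Atxn7l2*, a member of the ataxin 7 family, had 27.9, 27.5, 11.4, 10.7, and 12.1 CPM in LP females and 21.9, 20.0, and 58.2 CPM in NP females. It was higher in the low state, and the diet groups overlapped over all 8 libraries but not within either state. Its log2 fold change was -0.95 (SE 0.12, edgeR adjusted p = 0.111) with the state and -0.90 (SE 0.46, edgeR adjusted p = 0.886) without it. The SE was thus smaller with the state term, as it also was for *Iqcg* (0.19 with and 0.26 without). *Cacnb3*, a calcium channel subunit, had 9.93 to 14.7 CPM in LP females and 22.5, 19.3, and 30.9 CPM in NP females, with a log2 fold change of -0.89 (SE 0.17, edgeR adjusted p = 0.435).

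*Pzp* and *Slc7a13* are expressed far more in male kidneys. *Pzp* encodes a plasma protease inhibitor of the alpha-2-macroglobulin family, and *Slc7a13* an amino acid transporter of the straight proximal tubule that depends on androgen. *Pzp* had 0.718, 1.08, 0.823, 1.33, and 0.698 CPM in LP females and 4.26, 2.73, and 8.37 CPM in NP females, against 294 to 421 CPM in the 10 males. *Slc7a13* had 4.45, 1.495, 1.37, 1.64, and 2.18 CPM in LP females and 21.0, 4.81, and 20.8 CPM in NP females, against 601 to 1274 CPM in males. Every LP library was below every NP library for both genes. The log2 fold changes were -2.41 (SE 0.36, edgeR adjusted p = 0.322) and -2.85 (SE 0.47, edgeR adjusted p = 0.435), and DESeq2's adjusted p was 1.85e-05 and 4.60e-06.

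Y-linked reads were also more frequent in NP females. The authors had removed a sample recorded as female because it expressed Y-linked genes, and the NP females analysed here are those that remained. Summed over *Uty*, *Ddx3y*, *Kdm5d*, and *Eif2s3y*, LP females 1 to 5 had 11, 0, 2, 7, and 0 counts and NP females 1 to 3 had 17, 14, and 58 counts. As a share of the male mean, this was 0% to 0.375% in LP females and 0.740%, 0.566%, and 2.70% in NP females. *Pzp* stood at 0.191% to 0.356% of the male mean in LP females and 1.24%, 0.779%, and 2.24% in NP females, and *Slc7a13* at 0.135% to 0.481% and 2.22%, 0.498%, and 2.02%. These shares are of similar size and in the same order for *Pzp* and the Y-linked genes in NP females, but the order differed in LP females. In LP females 1 to 5 the Y-linked share was 0.375%, 0%, 0.0712%, 0.283%, and 0%. Their *Pzp* share was 0.214%, 0.326%, 0.224%, 0.356%, and 0.191%. What these shares come from was not tested. When the male share given by the Y-linked counts was subtracted from each library, the log2 fold change of *Pzp* was -0.47 (SE 0.98, edgeR adjusted p = 0.857) and that of *Slc7a13* -1.70 (SE 1.55, edgeR adjusted p = 0.646). With the short-gene share *Slc7a13* had -1.76 (SE 0.49) and *Pzp* -1.89 (SE 0.39). Subtracted counts below 0 were set to 0. After subtraction *Slc7a13* was at 0 in LP female 4 and NP females 2 and 3 and at 14.1 CPM in NP female 1. *Pzp* was then at 0 in LP female 1 and NP female 3, and at 1.70 and 0.776 CPM in NP females 1 and 2. The coefficients of both genes after subtraction thus rest partly on values set to 0. *Iqcg* was nearly the same after subtraction, with -1.61 (SE 0.19, edgeR adjusted p = 0.114).

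Male-biased kidney genes as a list had 6 of 20 tested members lower and 1 higher at an unadjusted p under 0.05, with a median log2 fold change of -0.57 against -0.01 over all genes tested. The other 4 lower members were *Slc22a28*, *Slco1a1*, *Slc22a30*, and *Ugt8a*, named after their values were seen. *Slco1a1*, an organic anion transporter, had 0.916 to 4.68 CPM in LP females and 6.76, 7.36, and 12.7 CPM in NP females (log2 fold change -1.85, SE 0.54). The higher member, *Odc1*, the rate-limiting enzyme of polyamine synthesis, had 328 to 598 CPM in LP females and 176, 313, and 320.0 CPM in NP females. Another transcript of the Y chromosome, the long noncoding *Gm57952* (90734917 to 90750535 on GRCm39), had 0.670 to 2.22 CPM in LP females and 5.83, 4.27, and 9.10 CPM in NP females, above the 0.637 to 3.62 CPM of males. Its log2 fold change was -2.12 (SE 0.38, edgeR adjusted p = 0.435), and -2.13 with the male share subtracted.

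The processed pseudogene *Gm8399* had the largest coefficient of the 8 top lower genes. It had 0.878 to 1.48 CPM in LP females and 46.0, 1.07, and 35.5 CPM in NP females, so NP female 2 lay among the LP females. Its log2 fold change was -4.56 (SE 0.82, edgeR adjusted p = 0.435), and the exact permutation within state gave p = 0.10. With the short-gene share in the model the log2 fold change was -1.05 (SE 0.45). In the 10 males of both diets it ranged from 0.637 to 55.5 CPM.

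**Figure D3:**
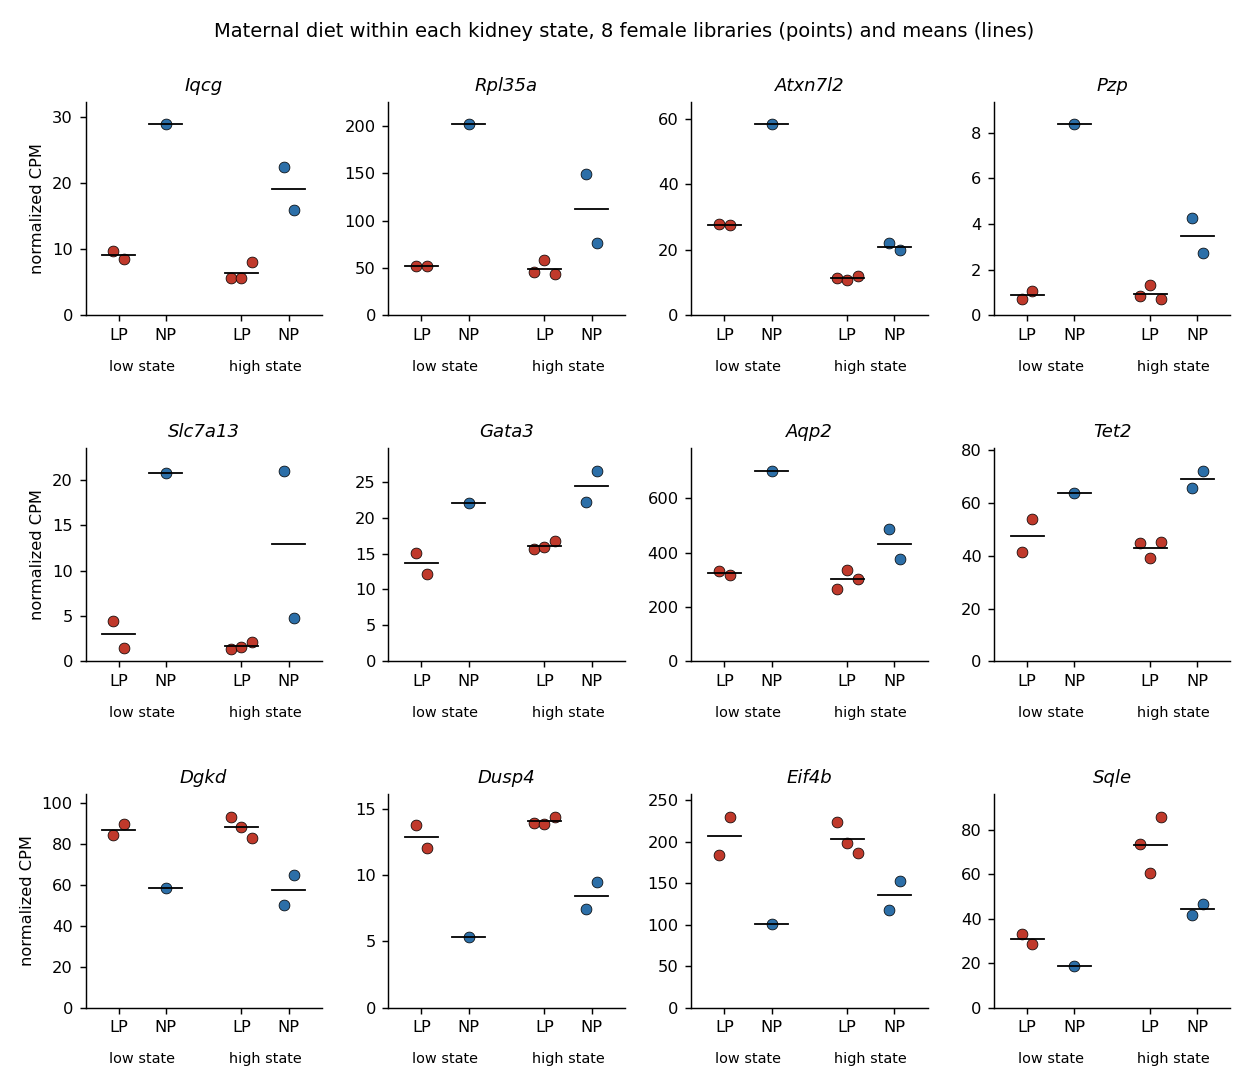
Normalized CPM (y axis from 0) of 12 genes in the 8 female libraries, by state and diet, with points for libraries and lines for means. For all 12 genes the LP and NP points do not overlap within either state, and LP lies lower in the upper 8 panels and higher in the bottom 4.

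The 8 genes with the smallest p that were higher in LP females were *Sqle*, *Dgkd*, *Dusp4*, *Klf13*, *Eif4b*, *Rab30*, *Pawr*, and *Fam20b*. The edgeR adjusted p was 0.435 for each of the 8, so none passed the test. *Dgkd*, a diacylglycerol kinase, had 84.2, 89.4, 93.2, 88.3, and 82.9 CPM in LP females and 50.3, 64.7, and 58.3 CPM in NP females. The groups did not overlap, the level hardly moved with the state, and the log2 fold change was 0.60 (SE 0.12, DESeq2 adjusted p = 0.00551). *Dusp4*, a phosphatase that turns off MAP kinases, had 12.1 to 14.4 CPM in LP females and 7.45, 9.50, and 5.31 CPM in NP females, which gave 0.91 (SE 0.18) on the log2 scale. *Eif4b*, a translation initiation factor, had 184 to 230 CPM in LP females and 118, 152, and 101 CPM in NP females, which gave 0.74 (SE 0.15) on the log2 scale.

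*Sqle*, the squalene epoxidase of cholesterol synthesis, moved with both factors. In the low state it had 32.9 and 28.5 CPM in LP females 1 and 2 and 18.9 CPM in NP female 3. In the high state it had 73.7, 60.4, and 85.9 CPM in LP females 3 to 5 and 41.7 and 46.8 CPM in NP females 1 and 2. Its log2 fold change was 0.72 (SE 0.14) with the state and 0.65 (SE 0.42) without. Of its pathway, 13 of the 27 cholesterol and fatty acid synthesis genes had a negative and 14 a positive coefficient (median 0.00). In that list 3 were higher and 1 lower at an unadjusted p under 0.05. *Klf13* and *Pawr*, both higher in the high state, had log2 fold changes of 0.52 (SE 0.11) and 0.52 (SE 0.11), and *Rab30*, a small GTPase of the Golgi, of 1.37 (SE 0.29).

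Most collecting duct genes had lower fitted levels in LP females. Of 15 principal cell genes tested, 12 had a negative coefficient (median -0.24), and 4 were lower and 0 higher at an unadjusted p under 0.05, while 0 passed the adjusted test. The principal cell list summed to 1187 to 1332 CPM in LP females and 1661, 1301, and 1784 CPM in NP females 1 to 3. NP female 2 thus lay within the LP range, and NP females 1 and 3, with the high short-gene share, lay above it. *Aqp2*, the vasopressin-regulated water channel, had 334, 317, 266, 337, and 304 CPM in LP females and 487, 375, and 701 CPM in NP females. *Gata3*, a transcription factor of the ureteric bud and collecting duct, had 15.1, 12.2, 15.7, 15.9, and 16.7 CPM in LP females and 22.2, 26.5, and 22.1 CPM in NP females. The groups did not overlap for either gene. The log2 fold change was -0.73 (SE 0.16, edgeR adjusted p = 0.435, DESeq2 adjusted p = 0.0228) for *Aqp2* and -0.63 (SE 0.14, edgeR adjusted p = 0.435, DESeq2 adjusted p = 0.0177) for *Gata3*. With the short-gene share in the model they were -0.48 (SE 0.15) and -0.74. The channel genes *Scnn1b*, *Scnn1g*, and *Aqp3*, named after their values were seen, had log2 fold changes of -0.17, 0.02, and 0.01. In males the coefficient of *Gata3* was 0.09 (SE 0.17), and the interaction of diet and sex had an edgeR adjusted p of 0.720. In whole tissue, fewer principal cells and less RNA per cell cannot be told apart.

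The start region of *Aqp2* is shown because *Gata3* encodes a factor that binds the letters GATA and both genes were lower in every LP library. The line gives its RefSeq window (GRCm38.p6, chr15:99578806-99579105, plus strand), and capitals mark GATA or, for the other strand, TATC.
Aqp2: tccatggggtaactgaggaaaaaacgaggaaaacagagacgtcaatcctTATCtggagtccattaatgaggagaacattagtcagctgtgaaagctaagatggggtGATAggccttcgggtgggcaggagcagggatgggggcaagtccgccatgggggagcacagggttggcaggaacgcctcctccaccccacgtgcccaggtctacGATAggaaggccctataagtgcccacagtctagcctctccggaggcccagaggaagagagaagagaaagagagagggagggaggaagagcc
The window holds 3 matches. Of 27025 promoter windows of that length, 58.3% hold at least 1 and 12.9% at least 3, so the matches are a description of the letters and not of binding.

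Genes of distal calcium transport had mostly positive coefficients, in LP females and in LP males. Of 18 phosphate, calcium, and vitamin D genes tested, 13 had a positive coefficient (median 0.27), and 4 were higher and 0 lower at an unadjusted p under 0.05. These were *Calb1*, *Trpv5*, *Casr*, and *Vdr*, the last of which was named after its values were seen. *Trpv5*, the apical calcium channel, had 20.4, 17.01, 39.8, 23.0, and 29.9 CPM in LP females and 15.9, 24.6, and 5.82 CPM in NP females, where the groups overlapped in the high state. *Calb1*, the calcium-binding protein calbindin, had 660, 637, 787, 894, and 873 CPM in LP females and 635, 652, and 390 CPM in NP females, which did not overlap within either state. The log2 fold changes were 0.94 (SE 0.28) and 0.52 (SE 0.12), with an edgeR adjusted p of 0.435 for both. In males, which are separate mice, they were 0.70 (SE 0.17) and 0.60 (SE 0.21), both below an unadjusted 0.05 in edgeR. The edgeR adjusted p in males was 0.890 and 0.9996, so neither gene passed edgeR's test in either sex. *Trpv5* is also among the genes that the study lists for these males. The median over the list in males was 0.24. Without NP female 3 the female coefficients were 0.61 and 0.40, and with the short-gene share they were 0.53 (SE 0.27), no longer below an unadjusted 0.05, and 0.48 (SE 0.14). *Trpv6*, another epithelial calcium channel, had a log2 fold change of -0.64 (SE 0.32) in females, -0.15 with the short-gene share and -0.42 without NP female 3. The wider distal convoluted and connecting tubule list had 18 of 24 positive coefficients, with 3 higher and 0 lower at that threshold.

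Coefficients of proximal tubule genes leaned the same way, but their summed level did not. Of 25 tested, 20 had a positive coefficient (median 0.23), but only 2 were higher and 0 lower at an unadjusted p under 0.05 (4.69% of all genes were higher). In the low state the 25 genes summed to 33220 and 34870 CPM in LP females and 39880 CPM in NP female 3. In the high state the sums overlapped, with 50120 to 54200 CPM in LP females and 50780 and 48180 CPM in NP females. The separate proximal straight tubule list had 8 of 12 negative coefficients (median -0.135), with 2 lower and 0 higher at that threshold. *Slc3a1*, a subunit of the cystine and dibasic amino acid transporter, had 283, 474, 662, 576, and 579 CPM in LP females and 342, 474, and 171 CPM in NP females. *Ass1*, an enzyme of arginine synthesis, had 2043 to 2343 CPM in LP females and 1679, 1721, and 1518 CPM in NP females, with no overlap. Their log2 fold changes were 0.77 (SE 0.21) and 0.41 (SE 0.13), and the male values were 0.10 and -0.05. *Hnf4a*, a master transcription factor of the proximal tubule, had 794 to 1009 CPM in LP females and 649, 790.0, and 611 CPM in NP females (log2 fold change 0.40, SE 0.14, and 0.22 with the short-gene share). Amino acid transporters had 17 of 21 positive coefficients (median 0.23), with *Slc7a13* the lowest, and glucose handling genes 13 of 18 (median 0.17). In the latter list, *Pcx*, pyruvate carboxylase, had a log2 fold change of 0.34 (SE 0.12).

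Fuel oxidation split by gene. *Cpt1a* and *Acadvl*, which carry long fatty acids into mitochondria and begin their oxidation, had log2 fold changes of 0.51 (SE 0.12) and 0.54 (SE 0.13), and *Acadvl* had 0.35 without NP female 3. Over the fatty acid oxidation list, 9 of 24 coefficients were negative (median 0.07), and 1 gene was lower and 3 higher at an unadjusted p under 0.05. The nuclear genes of oxidative phosphorylation had 4 lower and 4 higher members of 31 at an unadjusted p under 0.05, and 22 had a negative coefficient. The higher ones were *Atp5f1b*, *Sdha*, *Ndufs1*, and *Uqcrc2*, and the lower ones *Cox6c*, *Ndufb8*, *Cox7a2*, and *Uqcrq*, which encode small subunits, and all but *Atp5f1b* and *Sdha* were named after their values were seen. *Atp5f1b*, the catalytic subunit of ATP synthase, had 858 to 966 CPM in LP females and 674, 657, and 528 CPM in NP females (log2 fold change 0.52, SE 0.13). *Uqcrq* had 217 to 339 CPM in LP females and 419, 209, and 644 CPM in NP females (log2 fold change -0.58, SE 0.26), so it was high in the NP libraries with the high short-gene share. Cytosolic ribosomal protein genes, which are short, had 32 of 34 negative coefficients (median -0.32) but only 2 lower at that threshold, *Rpl35a* and *Rpl41*. Their sum was 7325 to 10520 CPM in LP females and 11530, 6748, and 13410 CPM in NP females. All 10 mitochondrial genome transcripts tested had negative coefficients (median -0.34) and none had an unadjusted p under 0.05, and the sum was highest in NP female 3.

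**Figure D4:**
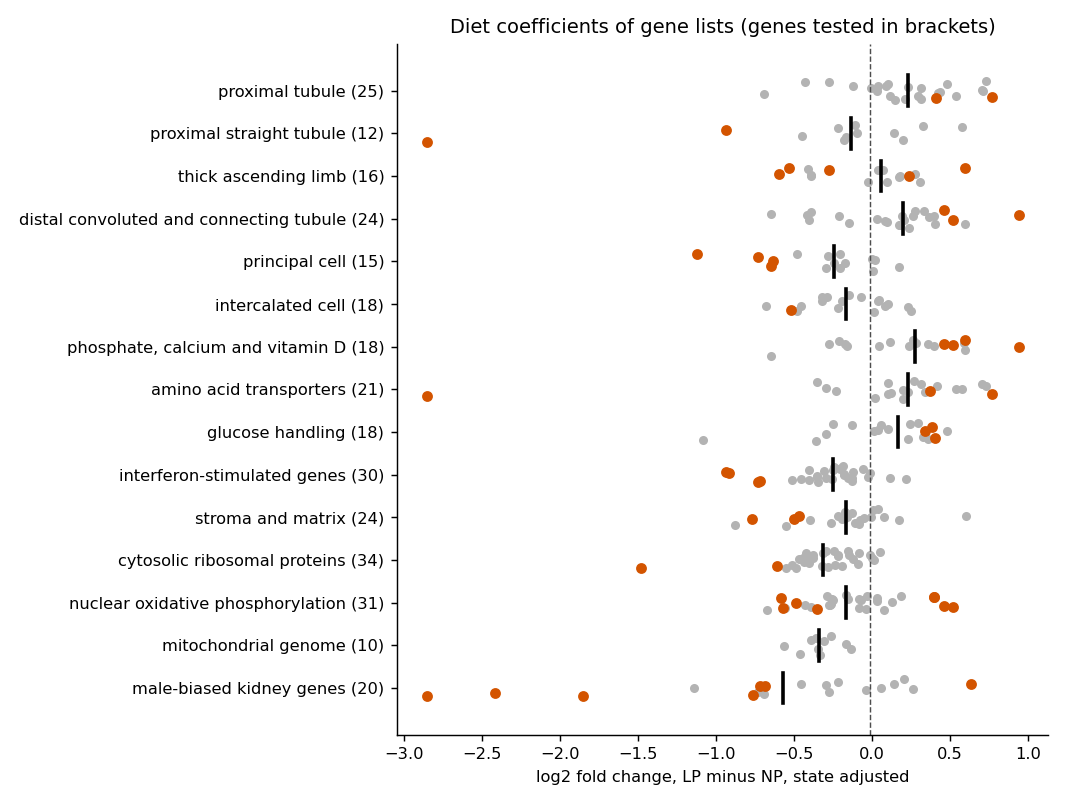
Log2 fold change (LP minus NP, state adjusted) of the tested genes of 15 lists, with orange points for an unadjusted p under 0.05 in edgeR, black bars for list medians, and a dashed line for the median of all genes. Principal cell, ribosomal, mitochondrial, and male-biased genes lie mostly to the left and proximal tubule, calcium, and amino acid transporter genes mostly to the right.

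With the state in the model, interferon-stimulated genes still had 28 of 30 negative coefficients (median -0.25, against -0.49 without the state), and 4 were lower and 0 higher at an unadjusted p under 0.05. The states were set on genes of this list, so this is a description. *Psmb8*, an immunoproteasome subunit, had 7.28, 7.89, 20.6, 23.1, and 35.3 CPM in LP females and 49.3, 29.3, and 22.5 CPM in NP females, which overlapped in the high state. Its log2 fold change was -0.93 (SE 0.27), -0.50 (SE 0.30) with the short-gene share, and -0.58 (SE 0.28) without NP female 3. Glucocorticoid targets were split, with 10 negative and 8 positive coefficients. *Klf9* and *Errfi1*, both glucocorticoid-induced, had log2 fold changes of 0.54 (SE 0.15) and 0.54 (SE 0.15), and *Fkbp5* of 0.20 (SE 0.30). For *Fkbp5* this was 0.31 with the short-gene share, 0.02 without NP female 2, and 0.82 without NP female 3.

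Clock genes gave both directions, with 2 of 18 lower and 3 higher at an unadjusted p under 0.05. *Nr1d1* and *Cry1*, clock repressors named after their values were seen, had log2 fold changes of 0.89 (SE 0.25) and -0.998 (SE 0.33) in females and 0.79 and -0.73 in males. *Bmal1*, a core activator also named after its values were seen, had -0.09 in females. The hour of collection of each mouse is not given in the sources used here.

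Among growth and chromatin genes, *Igf1*, insulin-like growth factor 1, had 8.90 and 15.98 CPM in LP females 1 and 2 against 29.3 CPM in NP female 3 of the low state. In the high state it had 3.79, 4.17, and 5.41 CPM in LP females against 10.96 and 7.004 CPM in NP females. The log2 fold change was thus -1.09 (SE 0.24) with the state and -1.04 (SE 0.57) without. *Igfbp1*, an IGF-binding protein that glucocorticoids and fasting induce, had a log2 fold change of 1.16 (SE 0.38) in females, 2.02 (SE 0.39) with the short-gene share and 0.77 (SE 0.28) without NP female 2, and of 2.32 (SE 0.78) in males. *Tet2*, which oxidizes 5-methylcytosine, had 39.1 to 54.0 CPM in LP females and 65.6, 72.2, and 63.7 CPM in NP females with no overlap, a log2 fold change of -0.59 (SE 0.13) and -0.41 (SE 0.15) in males. *Atf4*, the transcription factor of the amino acid starvation response, had 63.0 to 75.8 CPM in LP females and 104, 93.1, and 92.9 CPM in NP females with no overlap (log2 fold change -0.47, SE 0.10). The other 18 tested genes of the ATF4 list included only *Psat1*, a serine synthesis enzyme, at an unadjusted p under 0.05, with 0.85 (SE 0.35), which was 0.47 (SE 0.41) with the short-gene share and 1.30 (SE 0.38) without NP female 3. The edgeR adjusted p in females was 0.435 for each of *Igf1*, *Igfbp1*, *Tet2*, and *Atf4*.

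Of matrix and stromal genes, 19 of 24 had a negative coefficient (median -0.16), and 3 were lower at an unadjusted p under 0.05. *Vim*, vimentin, had 21.9 to 32.7 CPM in LP females and 39.3, 44.9, and 37.8 CPM in NP females with no overlap (log2 fold change -0.47, SE 0.13). *Mgp*, an inhibitor of calcification, had 46.5 to 76.0 CPM in LP females and 119, 73.7, and 73.1 CPM in NP females, which overlapped (log2 fold change -0.50, SE 0.16, and -0.15, SE 0.11, with the short-gene share). Of other developmental genes, *Osr2* had a log2 fold change of 0.47 (SE 0.24) and *Etv5* of 0.32 (SE 0.21), and both overlapped between diets. With the short-gene share they were 0.04 and -0.05, so the sign of *Etv5* turned. Without NP female 2 they were 0.81 and 0.67, with an edgeR adjusted p of 0.0401 and 0.0241, and without NP female 3 *Etv5* had 0.14. The hemoglobin gene *Hba-a1* had 17.97 to 107 CPM in LP females and 161, 53.9, and 98.9 CPM in NP females, which overlapped. Its log2 fold change was -1.74 (SE 0.53), and -0.95 (SE 0.56) with the short-gene share. Whether it followed the red blood cells left after perfusion was not tested.

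Genes that the study lists for males included 1 whose diet coefficient had the opposite sign in females among the 4 given here. *Gfra1*, the coreceptor of GDNF, had 4.02 to 13.97 CPM in LP females and 9.33, 3.56, and 3.57 CPM in NP females, with a log2 fold change of 0.65 (SE 0.46) in females and -3.60 (SE 0.32) in males. The female value was 1.34 (SE 0.55) with the short-gene share, 0.41 without NP female 2, and 0.32 without NP female 3. *Aldh1a1*, a retinoic acid synthase, had 4.79 to 18.2 CPM in LP females and 20.7, 16.9, and 5.46 CPM in NP females, with -0.51 (SE 0.34) in females and -2.05 (SE 0.17) in males. *Dvl1*, a Wnt signal transducer, had -0.24 (SE 0.10) and -0.61 (SE 0.08). Its groups overlapped over all 8 female libraries but not within state. *Pax8* had -0.23 (SE 0.12) and -0.34 (SE 0.10).

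Whether the coefficient of diet was the same in males was examined by an interaction term in a model of all 18 libraries that also held the female state. Of 12665 genes tested, 2 (0.0158%) had an edgeR adjusted p under 0.05, *Gfra1* and *Pzp*. Female minus male, the coefficient was 4.23 (SE 0.60, edgeR adjusted p = 0.0106) for *Gfra1* and -2.26 (SE 0.30, edgeR adjusted p = 0.0106) for *Pzp*. For *Slc7a13* it was -2.79 (SE 0.48, edgeR adjusted p = 0.0794). Without NP female 3, which had the most Y-linked reads, 0 genes passed in edgeR. The coefficient was then 3.93 for *Gfra1* (edgeR adjusted p = 0.153) and -1.70 for *Pzp* (edgeR adjusted p = 0.185), with 440 genes at an unadjusted p under 0.05, while DESeq2 with all libraries gave 14 genes. Sex coincides with the time from ferritin injection to collection, so the 2 cannot be told apart. Across the genes tested in both sexes, 57.0% had the same sign. Of 1354 genes at an unadjusted p under 0.05 in females, 878 had the same sign in males, and 54 of these were also at that threshold there. The share of all genes at that threshold in males is not reported here, so the 54 cannot be set against a background.

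**Figure D5:**
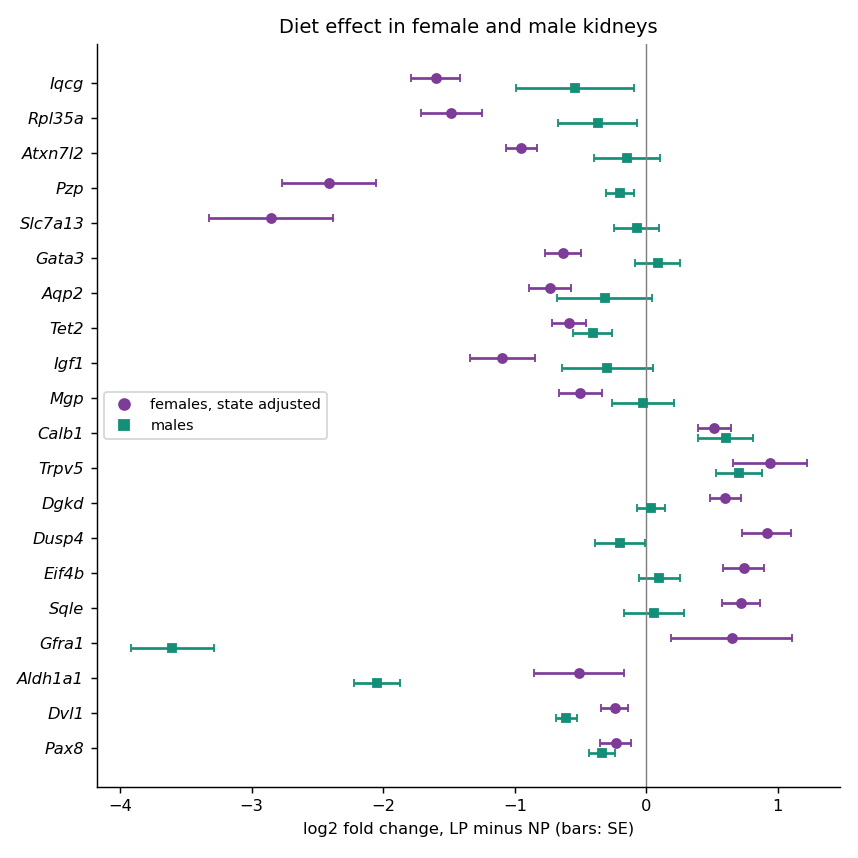
Log2 fold change (LP minus NP) of 20 genes in females (state adjusted, circles) and males (squares), with bars for the SE. *Calb1*, *Trpv5*, and *Tet2* lie on the same side of 0 in both sexes, while *Gfra1* lies at 0.65 in females and -3.60 in males.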

How the data were processed

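Per the labels and methods, the authors trimmed adapters, aligned reads to GRCm39 with GENCODE vM36 by STAR (version not given in the sources used here), and deposited raw counts of reads per gene. Libraries were poly(A)-selected and non-directional, so the unstranded count column was used, without normalization by the authors. Samples with an RNA integrity number under 4 had been removed. The totals of unassigned reads were left out.

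Genes with at least 10 counts in each of the 8 female libraries were tested with edgeR 4.0.16 (R 4.3.3), TMM normalization, and the quasi-likelihood test of diet with a 2-level state term, with 5 residual degrees of freedom. P-values were adjusted over all 13510 genes by Benjamini-Hochberg. Genes were called where the adjusted p was below 0.05 and the fold was 1.5 or more. The SE is the log2 fold change divided by the square root of F. DESeq2 1.42.0, limma 3.58.1, and sva 3.50.0 gave alternatives. The steps were tested on simulated data.

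The states, gene lists, and tests were chosen with earlier results of these data known. The alternatives tried were other state terms, sets of libraries, tests, filters, and thresholds, a replicate block, and leaving out each library. Genes named are the 8 with the smallest p in each direction, those the study names, the state and tissue markers, Y-linked genes, and the 2 members with the smallest p of each list described. Others are said to be named after their values were seen, and some genes are not reported here. Gene positions are those of GENCODE vM39. After diet and state, same-numbered LP and NP libraries correlated at 0.043, 0.352, and 0.288, so the numbers were not taken as pairs. Tables were handled with Python 3.11.15 and pandas 2.3.3.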

Additional observations from a re-analysis of the deposited data

Results flagged for a closer look

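Of 108 named genes, 8 had 1 LP female far from the other 4 by Dixon's test, and chance gives about 1 in 20. LP female 1 was the highest for *Slc7a13* (4.45 CPM). LP female 2 was the lowest for *Dusp4* (12.1 CPM) and *Ncam1* (1.24 CPM), and the highest for *Atp5f1b* (966 CPM), *Slc14a1*, a urea transporter (7.37 CPM), and the hemoglobin genes *Hba-a1* (107 CPM) and *Hbb-bt* (6.34 CPM). LP female 5 was the highest for the fat gene *Fabp4* (29.96 CPM).

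The diet effect differed between the sexes for *Pzp* (female minus male -2.26 on the log2 scale) and *Gfra1* (4.23), with an adjusted p of 0.0106 for both by edgeR's interaction test. For *Pzp*, the Y-linked shares given with its values moved in the same order in NP females but not in LP females.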

How the results depend on the processing

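The number of genes called for diet was 0 in edgeR and also with no state term, a continuous state score, 1 surrogate variable, DESeq2's size factors, filterByExpr, a mean count of at least 10, the adjusted p alone, and the male share subtracted. It was 1 in the high-state libraries alone (*Cwc22*), 2 with all 18 libraries in 1 model (*Slc7a13*, *Pzp*), 2 with limma-voom and quality weights (*Iqcg*, *Rpl35a*), 58 with DESeq2, 394 with no filter, and 4 with the replicate block and the state (*Thrsp*, *Ppp1ccb*, *Gm8730*, *H2-T10*), all named after their values were seen where no list holds them. With no filter, edgeR's prior degrees of freedom became infinite, against 4.39 with the filter, and 303 of the 394 genes had passed the filter. With 1 library left out the count ranged from 0 to 911 in edgeR, the highest without NP female 2, and from 18 to 1411 in DESeq2. Genes at an unadjusted p under 0.05 then ranged from 681 to 4167. Alternatives chosen after the data were seen were DESeq2 without the state (9 genes), DESeq2 with the male share subtracted (65), limma-voom without weights (0), the short-gene share (0, with 1013 at an unadjusted p under 0.05), and leaving out libraries in DESeq2.

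Interaction genes numbered 14 with DESeq2, 3 where genes averaging 10 counts were kept, 2 with the replicate block (*Slc7a13*, *Pzp*), and from 0 to 8 with 1 library left out, lowest without NP female 3 and highest without NP female 2. Of 80 named genes at an unadjusted p under 0.05, only *Cxcl10* (DESeq2, male share subtracted, 0.23) and *Rpl41* (short-gene share, 0.05) changed direction. These 80 were chosen by their p in the same libraries, so a kept direction is no separate support. Of all 110 named genes tested, 9 changed direction with the short-gene share, 4 in the high-state libraries alone, and 4 without NP female 3 in edgeR. The causes were not tested. There were 3 NP females, 1 of them in the low state, and no alternative varied the depth.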
